A study of Mus musculus with 4 samples.

Results

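The 6 genes described here encode transcription factors of the AP-1 family, namely Fos, Fosb and Fosl2 of the Fos family and Jun, Junb and Jund of the Jun family. They were taken by name, as members of this family, from count matrices that list 31053 genes. The choice was made with earlier results of these data known. The Fos and Jun families carry a basic region that contacts DNA and a leucine zipper that joins them in pairs: Fos proteins bind DNA with a Jun partner, whereas Jun proteins can also pair with each other. Fos, Fosb and Junb are classical early genes of neurons, transcribed within minutes of synaptic activity, calcium entry or growth factor signals, and also when tissue is cut and cells are dissociated. Jund is present at a steadier level in many resting cells, and Jun is induced by activity and by stress kinases, axon injury included.

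Transcriptomes of single cells came from the ventromedial prefrontal cortex of male C57BL/6 mice that were injected at 8 weeks with 5 rAAV2-retro viruses, each in another target area of the same animal. Each virus encoded EGFP and its own barcode, and was placed in agranular insula, dorsomedial striatum, mediodorsal thalamus, basolateral amygdala or lateral hypothalamus, so that a virus transcript in a prefrontal neuron marks an axon in one of these areas. All animals of both groups received the viruses, and there was no uninjected control. Unsorted cells gave 3 libraries from 1 mouse each, and cells sorted for EGFP gave 1 library, pooled from 3 other mice.

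Slices in the stated protocol were incubated for 30 min at 33 °C with 10 µM CNQX and 50 µM D-AP5, which block ionotropic glutamate receptors. They were then digested with papain for 30 to 40 min at 37 °C and again for 30 min at 25 °C. The levels of early genes below are levels after this procedure, and what part of them was present in the animal was not tested. The 3 unsorted libraries held 7243 to 8040 called cells and 83065993 to 87841541 UMIs (unique molecular identifiers, 1 per captured RNA molecule), and the sorted library held 2075 cells and 54749198 UMIs. The deposited annotation placed 9368 cells in 7 excitatory subtypes, with 2463 to 2816 neurons per unsorted library and 1603 in the sorted one. Each subtype's naming gene had its highest mean level in that subtype. Levels are given as CPM, the UMIs of a gene per 1000000 UMIs of the summed cells. In the sorted library most of the 9050 genes with a mean CPM of at least 10 were outside the unsorted range: over the 6 subtypes with 10 or more sorted neurons, 45.7 to 54.2% of them were above and 29.6 to 32.6% below it. Values of that library are therefore given apart. Between 5 and 12 neurons per library carried a cell barcode that also occurred among the neurons of another library.

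The promoters of the members whose annotated start is nearly the same in RefSeq and in GENCODE are printed first. Whether their motifs bear on the levels below was not tested. The sequences are RefSeq's for GRCm38.p6, run 5′ to 3′ on the gene's own strand and cover bases 120 to 11 before the RefSeq start. Capitals mark matches to TGACG (the core of the element bound by CREB), TGACNTCA (the 8-base element bound by Jun and ATF pairs), TGANTCA (the 7-base AP-1 element) and TATAAA. Fos lies at chr12:85473890-85477273 on the plus strand, Fosb at chr7:19302696-19310051, Junb at chr8:84974484-84978718 and Jun at chr4:95049034-95052222, the last 3 on the minus strand, and the windows are chr12:85473770-85473879, chr7:19310056-19310165, chr8:84978759-84978868 and chr4:95052233-95052342.
Fos: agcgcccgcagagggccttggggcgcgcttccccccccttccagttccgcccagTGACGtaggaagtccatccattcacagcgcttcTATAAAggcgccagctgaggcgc
Fosb: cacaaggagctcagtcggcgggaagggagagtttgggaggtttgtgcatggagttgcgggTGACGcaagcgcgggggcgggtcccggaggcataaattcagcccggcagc
Junb: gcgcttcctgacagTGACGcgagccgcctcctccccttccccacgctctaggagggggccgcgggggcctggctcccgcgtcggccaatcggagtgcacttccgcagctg
Jun: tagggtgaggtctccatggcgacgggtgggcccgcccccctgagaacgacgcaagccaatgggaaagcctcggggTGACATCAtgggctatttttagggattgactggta

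Fos, Fosb and Junb each held TGACG in this window and Jun did not. TGACG began 66 bases before the start in Fos, 60 in Fosb and 106 in Junb, and a further match in Fos began 129 bases before the start, outside the printed stretch. Jun held TGACATCA, which began 45 bases before the start, and Fos held TATAAA, which began 33 bases before it. Searched on both strands in the 250 bases before the start, TGACG was present in 17.8% of 32851 RefSeq promoters, TGACNTCA in 7.49%, TGANTCA in 6.75% and TATAAA in 12.4%, and TGACG and TGACNTCA can overlap. A match is a match of letters and says nothing on binding. Fosl2 (chr5:32135801-32157842, plus strand) and Jund (chr8:70698949-70700616, plus strand) have RefSeq and GENCODE starts that lie 671 and 1210 bases apart, so their promoters are not shown.

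Among excitatory neurons, Fos, Fosb and Junb were highest in the deep-layer L6-Syt6 subtype, and Fosl2 was highest in L6-Npy. UMIs were summed over the neurons of a subtype in each library, and levels are the mean ± SD over the 3 unsorted libraries. The subtypes were clustered on expression of these same cells, so their levels are given without a test, and levels are not compared between genes. Fos was at 637, 651 and 699 CPM in L6-Syt6 of the 3 unsorted libraries and at 738 in the sorted one. It followed at 491 ± 18.6 in L6-Npy, 426 ± 48.6 in L2/3-Rorb, 366 ± 24.1 in L5-Htr2c, 281 ± 28.9 in L5-S100b, 260 ± 37.3 in L2/3-Calb1 and 203 ± 50.4 in L5-Bcl6. L6-Syt6 stood above all other subtypes without overlap, while L2/3-Rorb and L5-Htr2c overlapped, as did L5-S100b and L2/3-Calb1, and L2/3-Calb1 and L5-Bcl6.

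Fosb, which gives rise to the stable truncated form ΔFosB known from repeated stimulation, had the same leading pair. It was at 219 ± 1.9 CPM in L6-Syt6, 179 ± 6.2 in L6-Npy, 141 ± 25.8 in L5-Htr2c, 138 ± 3.6 in L2/3-Rorb, 104 ± 18.2 in L2/3-Calb1, 97.6 ± 1.7 in L5-S100b and 86.4 ± 18.5 in L5-Bcl6 (SD, n = 3). Among neighbours in this order, L5-Htr2c and L2/3-Rorb overlapped, and so did L2/3-Calb1, L5-S100b and L5-Bcl6. The 3' counts used here do not separate the 2 splice forms.

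Fosl2 (Fra-2), a Fos protein without the strong activation domain of Fos, was arranged differently. It was at 73.4, 65.7 and 57.9 CPM in L6-Npy of the unsorted libraries and at 56.2, 48.5 and 59.5 in L5-Bcl6, and these ranges overlapped. All other subtypes were lower without overlap: 27.2 ± 0.3 in L5-S100b, 26.3 ± 7.2 in L2/3-Calb1, 21.0 ± 6.0 in L2/3-Rorb, 15.2 ± 1.0 in L6-Syt6 and 6.0 ± 1.8 in L5-Htr2c. L5-Bcl6 thus held the lowest mean of Fos, Fosb, Jun, Junb and Jund and the second-highest mean of Fosl2.

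Junb, a Jun protein induced together with Fos, was at 1026 ± 16.1 CPM in L6-Syt6, 843 ± 53.4 in L6-Npy, 698 ± 63.9 in L2/3-Rorb, 599 ± 38.5 in L2/3-Calb1, 489 ± 63.7 in L5-Htr2c, 449 ± 29.0 in L5-S100b and 385 ± 80.6 in L5-Bcl6. Each of the first 4 lay above the next without overlap, and the last 3 overlapped with each other. Jun was at 798 ± 6.2 in L6-Syt6, 742 ± 48.9 in L5-Htr2c and 671 ± 31.1 in L6-Npy, and then at 461 ± 29.3 in L2/3-Calb1, 459 ± 39.7 in L2/3-Rorb, 382 ± 16.4 in L5-S100b and 312 ± 20.8 in L5-Bcl6. The 3 subtypes at the top lay apart from the other 4, but L6-Syt6 and L5-Htr2c overlapped. Jund was at 586 ± 42.0 in L6-Syt6, 539 ± 29.7 in L5-Htr2c, 494 ± 30.4 in L6-Npy, 456 ± 33.6 in L2/3-Rorb, 456 ± 26.6 in L2/3-Calb1, 375 ± 14.0 in L5-S100b and 336 ± 20.3 in L5-Bcl6. Each of the first 5 overlapped with its neighbour, and only L5-S100b and L5-Bcl6 stood apart below them.

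So 3 of the 6 members (Fos, Fosb and Junb) were above every other subtype in L6-Syt6 without overlap, against 8.42% of the 9050 genes. The ratio of the highest to the lowest subtype mean was 11.02 for Fosl2, 3.27 for Fos, 2.66 for Junb, 2.55 for Jun, 2.54 for Fosb and 1.74 for Jund. Over the 9050 genes the median of this ratio was 1.63 and the 90th percentile 4.53. Jund therefore lay near the middle of all genes and Fosl2 above the 90th percentile.

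**Figure D1:**
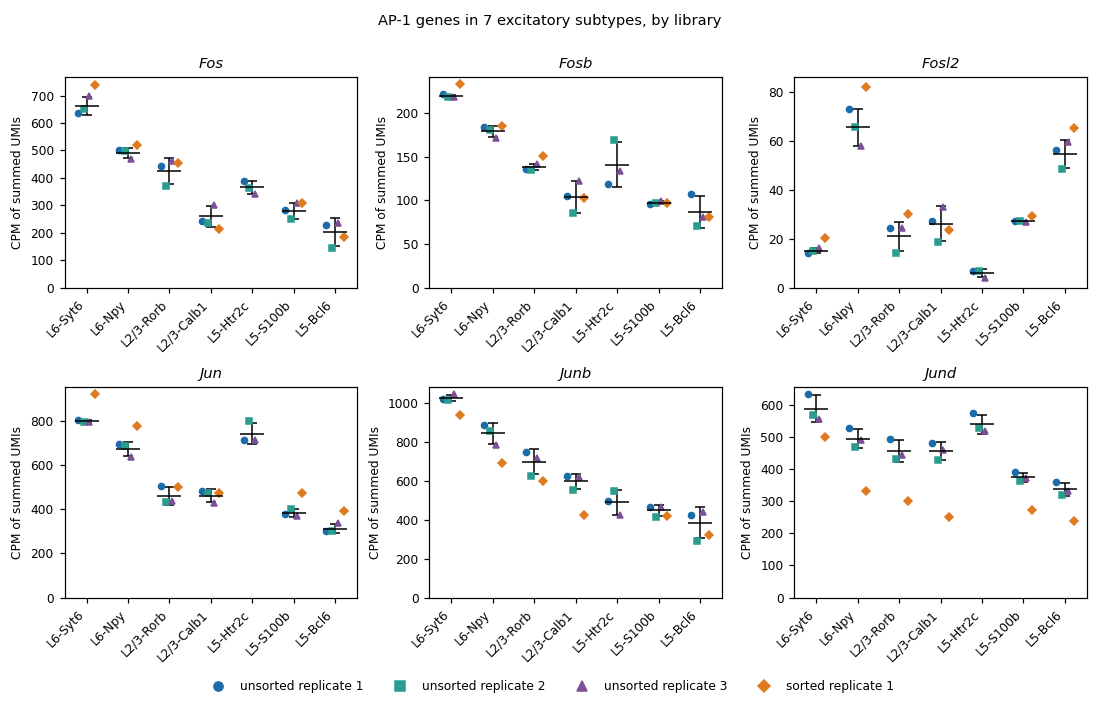
CPM of summed UMIs (vertical axis, starting at 0) for each AP-1 gene in the 7 excitatory subtypes, with 1 coloured point per library and a black bar for the mean ± SD of the 3 unsorted libraries. Fos, Fosb and Junb were highest in L6-Syt6, while Fosl2 was highest in L6-Npy (65.7 ± 7.8) and L5-Bcl6 (54.7 ± 5.6).

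In the sorted library Jund was below all unsorted libraries in each of the 6 subtypes with 10 or more sorted neurons, at 55.0 to 85.1% of the unsorted mean. Over all excitatory neurons it was at 400 CPM after sorting and at 518 ± 31.2 before. The other 5 members showed no such uniform direction, and 15.5% of the 9050 genes were below in all 6 subtypes. Sorting, pooling and animals cannot be told apart with 1 sorted library.

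At the level of single neurons of L6-Syt6 and L6-Npy, Fosb, Junb and Fosl2 were detected more often in neurons with a Fos UMI than in neurons without one. Neurons were thinned to 10000 UMIs each for this, and shallower neurons were left out (27 to 33 of 1382 to 1511 L6-Syt6 neurons per unsorted library). In L6-Syt6, 77.1 ± 2.5% of neurons with a Fos UMI also had a Fosb UMI, against 36.1 ± 2.7% of neurons without one. Junb averaged 11.1 UMIs in the former and 2.36 in the latter. Fosl2 was present in 11.7 ± 0.4% and 6.72 ± 0.5% of them (SD, n = 3 libraries). In L6-Npy the same comparison gave 71.1 ± 1.5% and 33.6 ± 4.9% for Fosb, and 39.6 ± 4.7% and 20.3 ± 6.2% for Fosl2. This did not hold in every subtype: in L5-Bcl6, Fosl2 was at 36.7 ± 0.9% and 34.7 ± 5.1%, a difference within the spread. Nor was it particular to these members. Jun was at 92.6 ± 1.2% and 75.9 ± 10.1% in L2/3-Rorb, and at 88.2 ± 0.8% and 83.7 ± 5.4% in L5-Bcl6.

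Per library, Pearson's r between thinned log counts of Fos and Junb over L6-Syt6 neurons was 0.70 to 0.73, between Fos and Fosb 0.57 to 0.60, and between Fosl2 and Jun 0.06 to 0.10. In L6-Npy (260 to 295 thinned neurons per library) these values were 0.65 to 0.79, 0.54 to 0.61 and 0.06 to 0.14. Neurons of a library share its preparation and counts are low, so these are descriptions. The variance over the mean of thinned counts (Fano factor) in L6-Syt6 was 9.08 for Junb, 5.60 for Fos, 3.36 for Jun, 2.56 for Fosb, 1.87 for Jund and 1.58 for Fosl2.

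The share of neurons with a UMI depended little on thinning for Jun and Jund and strongly for Fosl2. In L6-Syt6 it was 94.0% for Fos before thinning and 89.1% after, 85.4 and 72.6% for Fosb, 98.9 and 97.1% for Jun, 97.7 and 93.8% for Junb, 99.7 and 98.8% for Jund, and 19.3 and 11.1% for Fosl2. Fosl2 was detected after thinning in 36.0 ± 2.5% of L5-Bcl6, 35.5 ± 2.6% of L6-Npy and 4.59 ± 0.5% of L5-Htr2c neurons. In oligodendrocyte-like cells of the same libraries 0.410% of cells had a Fosl2 UMI, at a median depth of 4560 to 4874.5 UMIs against 22505 to 23830.5 in L6-Syt6. All 6 members were detected together in 24.9 ± 3.6% of thinned L6-Npy neurons, in 8.89 ± 0.3% of L6-Syt6 neurons and in 3.37 ± 0.9% of L5-Htr2c neurons.

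Among 9050 genes, those whose level followed Fos most closely over 27 sums of a library and subtype were Fosb (r = 0.95), Fbl (0.95), Junb (0.92), Sdk1 (0.91) and Pcdh9 (0.90). For Fosb they were Fos, Fbl, Junb, Pcdh9 and Gadd45g, and for Junb they were Fos, Fosb, Gadd45g, Sertad1 and Arl4d. Jun was followed by Jund (0.94), Slc6a11, Hspa1a, H2afy and Sema5b. Fosl2 ran apart from Fos (r = -0.23) and Jund (-0.48). The 27 sums share 4 libraries and 7 subtypes, and r was taken on log2(CPM + 1) centred within each library.

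The next comparison asked whether AP-1 levels differed, within a subtype, between neurons with many virus transcripts and neurons with none. The matrices hold 1 feature named barcode; neurons with 5 or more of its UMIs (barcode-high) were compared with neurons with 0 (barcode-zero), and neurons with 1 to 4 entered neither group. A count of 0 in these libraries does not show that a neuron lacked the virus. UMIs were summed per library and group and fitted over all genes with the edgeR quasi-likelihood test, with library as a block. To be called, a gene needed a log2 fold of 0.5 or more in size besides an adjusted p (Benjamini-Hochberg) below 0.05. Positive log2 folds mean higher in barcode-high neurons.

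In L6-Npy, Fos, Fosb and Fosl2 were higher in barcode-high neurons and Jun was not. Fos was at 571, 628 and 566 CPM in barcode-high and at 502, 487 and 386 CPM in barcode-zero neurons of unsorted libraries 1, 2 and 3, and at 738 and 316 in the sorted library. All 4 barcode-high values lay above all barcode-zero values, with the widest gap after sorting. The log2 fold change was 0.58 ± 0.08 (SE, n = 4 libraries, edgeR adjusted p = 1.14e-05).

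Fosb was at 206, 223 and 191 CPM against 171, 170 and 160 in the unsorted libraries and at 274 against 102 in the sorted one. The groups did not overlap, and the log2 fold was 0.58 ± 0.10 (edgeR adjusted p = 0.000561). Fosl2 was at 88.2, 83.4 and 72.1 CPM against 63.4, 57.5 and 43.4, and at 107 against 54.4 after sorting. Again no values overlapped, and the log2 fold was 0.70 ± 0.10 (edgeR adjusted p = 2.47e-05).

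Among the Jun genes of L6-Npy, Junb was at 971, 1074 and 919 CPM in barcode-high and 928, 794 and 692 in barcode-zero neurons, and at 974 and 447 after sorting. It was higher in each library, but the groups overlapped, and its log2 fold of 0.498 ± 0.08 passed the adjusted p (4.44e-05, edgeR) and missed the fold limit. Jun was at 679, 723 and 651 CPM against 763, 801 and 671 in the unsorted libraries and at 890 against 696 in the sorted one. Its direction thus differed between the unsorted libraries and the sorted one, and the log2 fold was 0.01 ± 0.05 (edgeR adjusted p = 0.968). Jund had a log2 fold of 0.16 ± 0.06 and did not pass (edgeR adjusted p = 0.173).

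In all, 3 of 6 members were called higher in L6-Npy, where 0.617% of 10365 genes were. Without the fold limit 4 of 6 passed the adjusted p as higher, against 1.11% of genes. The groups did not overlap for 3 members (1.63% of genes), and 5 members were higher in all 4 libraries (8.82% of genes). The median log2 fold of the members was 0.54, and that of all genes -0.00.

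In L6-Syt6, Fosl2 and Junb were called higher in barcode-high neurons. Fosl2 was at 17.3, 21.2 and 21.2 CPM in barcode-high and 13.1, 12.5 and 14.0 in barcode-zero neurons of the unsorted libraries, and at 22.0 and 15.97 after sorting. The groups were apart in these 4 libraries, and the log2 fold was 0.61 ± 0.08 (edgeR adjusted p = 0.00433). Junb was at 1225, 1212 and 1318 CPM against 966, 964 and 974, and at 1120 against 620 after sorting. It also had no overlap, with a log2 fold of 0.53 ± 0.09 (edgeR adjusted p = 0.0115).

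Fos was at 754, 774 and 851 CPM against 612, 625 and 675 in unsorted L6-Syt6 neurons, and at 854 against 469 after sorting. The groups were apart, and the log2 fold of 0.49 ± 0.10 passed the adjusted p (0.0194, edgeR) but missed the fold limit. The same held for Fosb, with 260, 249 and 256 CPM against 217, 207 and 215, and 273 against 153 after sorting (log2 fold 0.43 ± 0.10, edgeR adjusted p = 0.0334). Jun had a log2 fold of 0.20 ± 0.08 (edgeR adjusted p = 0.137) and Jund one of 0.21 ± 0.10 (edgeR adjusted p = 0.206). Jun was higher in barcode-high neurons of each library by values between 811 over 809 CPM and 1009 over 748 CPM.

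Here 2 of 6 members were called higher, against 0.806% of 13030 genes, and 4 of 6 passed the adjusted p as higher, against 4.64% of genes. For 5 members no values overlapped (4.93% of genes), and 5 were higher in each library (14.4% of genes). The median log2 fold of the members was 0.46, and that of all genes -0.01.

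The log2 folds of Fos and Junb were smaller without the sorted library, in which barcode-zero neurons had low Fos, Fosb and Junb. With the 3 unsorted libraries alone, only Fosl2 was called in L6-Npy (log2 fold 0.57, edgeR adjusted p = 0.00209) and in L6-Syt6 (0.62, edgeR adjusted p = 1.08e-08). Fos then had log2 folds of 0.37 in L6-Npy and 0.34 in L6-Syt6 and Junb of 0.31 and 0.40, each with an edgeR adjusted p under 0.05 and under the fold limit. For Fosb the lowest log2 fold with 1 library left out was 0.31 in L6-Npy and 0.29 in L6-Syt6. DESeq2 called Fosl2 alone of the members in L6-Npy (adjusted p = 0.0381), and with 1 or more barcode UMIs in place of 5 no member was called in either subtype. Without unsorted replicate 2, no member was called in L6-Syt6, where Fosl2 was at 0.54 with an edgeR adjusted p of 0.0669. Without unsorted replicate 1 or 3 Junb was lost there (0.59 and 0.56, edgeR adjusted p = 0.0689 and 0.0699).

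Depth moved with the groups. Median UMIs per neuron were 24597 to 38612 in barcode-high and 21684 to 30096.5 in barcode-zero L6-Syt6 neurons, and 19831.5 to 27421.5 and 17807 to 24393 in L6-Npy. Among neurons of 10000 to 40000 UMIs alone, Fosl2 had a log2 fold of 0.71 in L6-Npy and 0.60 in L6-Syt6, so it was about as large in this range. The shares of mitochondrial UMIs overlapped between groups (medians 2.54 to 5.81% and 3.38 to 5.94% in L6-Syt6). None of the microglia, oligodendrocyte, astrocyte, endothelial or inhibitory marker genes tested was called in either subtype. Their summed levels overlapped between barcode-high and barcode-zero L6-Syt6 neurons: 1.49 to 14.6 and 1.86 to 14.995 CPM for microglia, 30.2 to 48.7 and 30.8 to 54.7 for oligodendrocytes, 15.4 to 23.6 and 17.5 to 24.8 for astrocytes, 3.99 to 10.4 and 4.46 to 8.91 for endothelial cells, and 0.952 to 8.48 and 0.743 to 6.65 for inhibitory neurons. The matching ranges in L6-Npy overlapped as well.

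**Figure D2:**
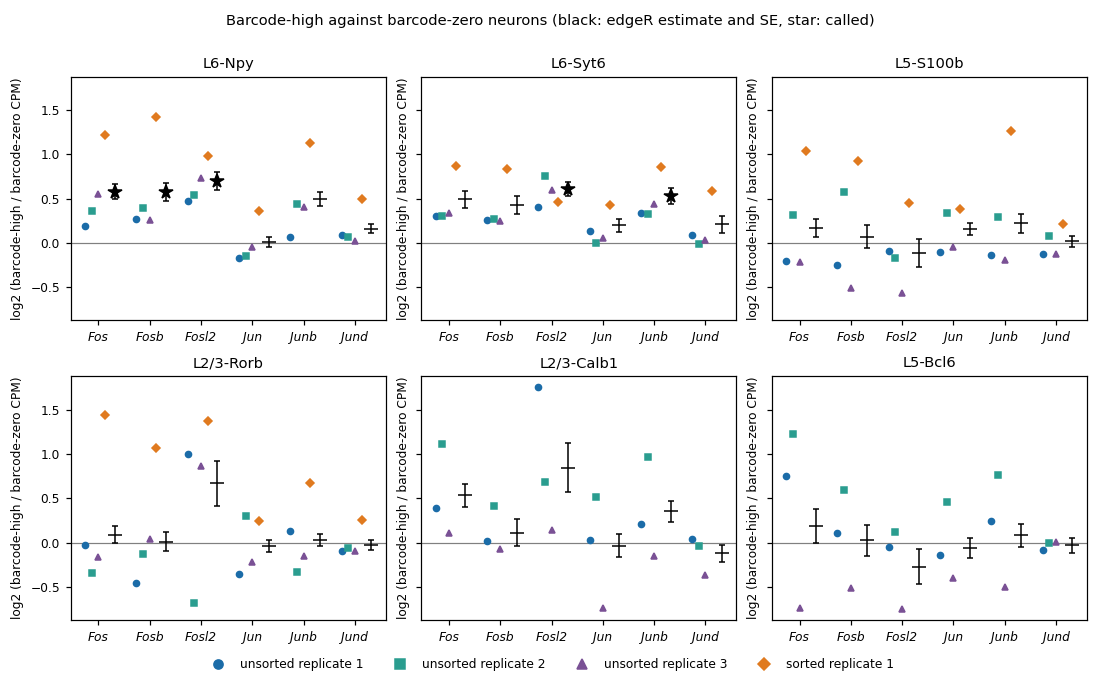
Log2 ratio of barcode-high to barcode-zero CPM for each AP-1 gene in 6 excitatory subtypes, with 1 coloured point per library. Black marks give the edgeR estimate with its SE and a star where the gene was called: Fos, Fosb and Fosl2 in L6-Npy, and Fosl2 and Junb in L6-Syt6.

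Levels did not climb evenly with the number of virus transcripts. In the unsorted libraries Fos and Junb were lowest at 1 to 4 barcode UMIs and highest at 20 or more, in both subtypes. In L6-Npy, Fos was at 502, 487 and 386 CPM in neurons with 0 barcode UMIs, at 388, 276 and 322 with 1 to 4, at 477, 513 and 440 with 5 to 19, and at 868, 962 and 973 with 20 or more. The 20-or-more values lay above all others, whereas those at 0 and at 5 to 19 overlapped. These 3 bins of 20 or more held 30 to 34 neurons per library.

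In L6-Syt6 the unsorted Fos mean was 637 CPM at 0, 527 at 1 to 4, 707 at 5 to 19 and 1003 at 20 or more barcode UMIs. Junb had the same order, at 968, 827, 1106 and 1606 CPM, and Fosb at 213, 182, 233 and 310. Fosl2 was at 13.2, 12.9, 17.0 and 26.7 CPM in L6-Syt6, with no dip beyond the spread, and at 54.8, 44.1, 67.8 and 123 in L6-Npy. Jund was at 592, 541, 589 and 655 CPM in L6-Syt6. In the sorted library Fos was higher in each successive bin, at 469, 571, 772 and 1002 CPM in L6-Syt6 and at 316, 370, 678 and 1111 in L6-Npy. Jun in unsorted L6-Npy neurons was at 745, 587, 675 and 713 CPM and so had its highest mean at 0. Median depth in unsorted library 1 was 21684, 21412, 24021 and 25675.5 UMIs over the 4 bins of L6-Syt6. The bins are a description, without a test.

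**Figure D3:**
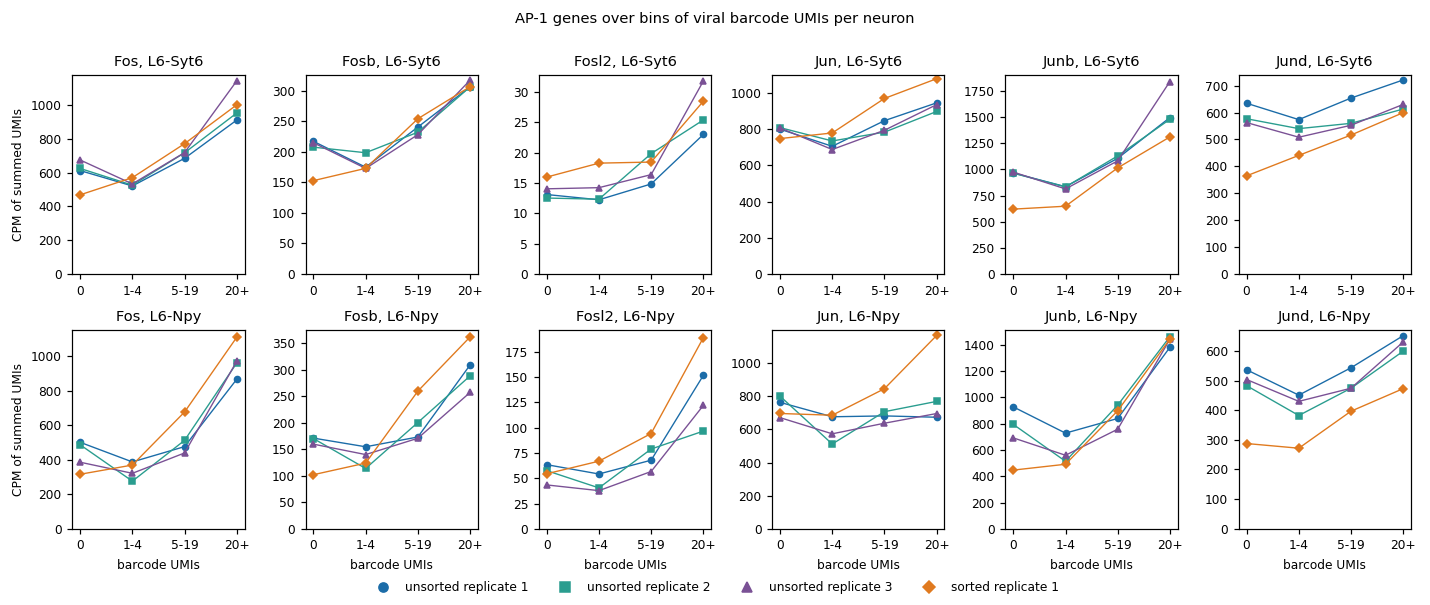
CPM of summed UMIs (vertical axes, starting at 0) over bins of 0, 1 to 4, 5 to 19 and 20 or more barcode UMIs, for L6-Syt6 (top) and L6-Npy (bottom), with 1 line per library. For Fos the unsorted lines dip at 1 to 4 (527 CPM on average in L6-Syt6) and peak at 20 or more (1003), while the sorted line climbs throughout.

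In the other 4 subtypes that could be fitted, no member was called with these settings. L5-S100b had 207 to 270 barcode-high and 24 to 74 barcode-zero neurons per library, and 2.70% of 11477 genes were called there in either direction. Fosl2 was at 27.1, 26.9 and 24.2 CPM in barcode-high and 28.8, 30.2 and 35.8 in barcode-zero neurons of the unsorted libraries, and at 28.4 and 20.8 after sorting. It was lower in barcode-high neurons of the 3 unsorted libraries and higher in the sorted one (log2 fold -0.12 ± 0.16, edgeR adjusted p = 0.773). Fos had a log2 fold of 0.17 (edgeR adjusted p = 0.425), Jun of 0.16 (0.198) and Junb of 0.22 (0.280). At an unadjusted p under 0.05, 2 of 6 members (Jun and Junb) passed, where 17.2% of all genes did.

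L2/3-Rorb (0.139% of 10038 genes called), L2/3-Calb1 (0.180% of 8340) and L5-Bcl6 (0.0686% of 8752) also had no member called by edgeR. At an unadjusted p under 0.05 there was 1 of 6 members in L2/3-Rorb (6.78% of genes), 3 in L2/3-Calb1 (5.67%) and 0 in L5-Bcl6 (6.62%). Fosl2 had a log2 fold of 0.67 ± 0.25 in L2/3-Rorb (edgeR adjusted p = 0.436) and 0.85 ± 0.27 in L2/3-Calb1 (0.492). In L5-Bcl6 it was at -0.27 ± 0.20 (0.889). Fos was at 0.53 ± 0.13 in L2/3-Calb1 (edgeR adjusted p = 0.0831), and it was called there with no filter on low counts (0.52, edgeR adjusted p = 0.00166) and among neurons of 10000 to 40000 UMIs (0.60, 0.00478). Without unsorted replicate 3, Fos, Fosl2 and Junb were called in L2/3-Calb1 (log2 folds 0.77, 1.27 and 0.60) and Fos in L5-Bcl6 (0.94). Fos was also called in L2/3-Calb1 without replicate 1 (0.60), and Fosl2 in L2/3-Rorb without replicate 2 (1.06). DESeq2 called no member in L2/3-Rorb, L2/3-Calb1, L5-Bcl6 or L5-S100b. L2/3-Calb1 and L5-Bcl6 entered with 3 libraries, since the sorted one had under 10 barcode-zero neurons there, and L5-Htr2c could not be fitted.

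Whether the contrast differed from that in L6-Syt6 was tested as an interaction in 1 edgeR fit over 12081 genes. The Fosl2 effect in L5-S100b was lower than in L6-Syt6 by a log2 difference of -0.73 ± 0.20 (edgeR adjusted p = 0.0170), in a comparison where 3.79% of genes were called. It lost the call without unsorted replicate 1 (-0.80, edgeR adjusted p = 0.0712), replicate 2 (-0.64, 0.102) or replicate 3 (-0.56, 0.243), and kept it without the sorted library (-0.85, 0.00151). No other member was called in L5-S100b, and none was in L2/3-Rorb (0.960% of genes called) or L6-Npy (1.78%). For Junb the difference in L2/3-Rorb was -0.48 ± 0.18 (edgeR adjusted p = 0.238). Without the sorted library Fos was called there, at -0.50 (edgeR adjusted p = 2.31e-06). Junb in L2/3-Rorb then passed the adjusted p and missed the fold limit (-0.49, edgeR adjusted p = 1.97e-06). Without unsorted replicate 1, 2 or 3 Junb did not pass (edgeR adjusted p = 0.325, 0.575 and 0.547).

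Genes that act around AP-1 were counted from lists of genes with known roles, chosen with earlier results of these data known. Of all genes tested, 0.617% were called higher in L6-Npy and 0.806% in L6-Syt6. Among 16 other bZIP genes, such as Atf and Maf family members that can pair with Fos or Jun proteins, none was called in L6-Npy (7 tested, median log2 fold 0.16) or L6-Syt6 (12 tested, -0.02). Of the kinases and factors upstream of AP-1, 1 of 16 was called in L6-Npy and none of 17 in L6-Syt6. It was Srf, the serum response factor that activates the Fos promoter, at 33.2 ± 4.9 CPM in barcode-high and 20.5 ± 9.95 CPM in barcode-zero neurons (log2 fold 0.72 ± 0.18, edgeR adjusted p = 0.0314). The list medians were 0.07 and -0.04.

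Genes that limit the response moved in part with the members. Of 10 feedback and degradation genes tested in L6-Npy, 4 were called higher: Dusp6 and Dusp1, phosphatases of the MAP kinases, Btg2, an antiproliferative early gene, and the early gene Ier2. Dusp6 was at 88.4 ± 15.98 CPM against 39.1 ± 12.7 (log2 fold 1.20 ± 0.12, edgeR adjusted p = 1.41e-07). In L6-Syt6, Dusp6, Dusp1 and Btg2 were called higher out of 14, and Spry4, an inhibitor of receptor kinase signalling, was called lower at 2.04 ± 0.3 CPM against 3.86 ± 0.7 (log2 fold -0.84 ± 0.18, edgeR adjusted p = 0.0266). The median of the list was 0.48 in L6-Npy and 0.06 in L6-Syt6.

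Of the early genes outside AP-1, 11 of 15 were called higher in L6-Npy (median log2 fold 0.85) and 7 of 16 in L6-Syt6 (median 0.45), with none lower. Egr4, a zinc finger factor, was at 363 ± 39.9 CPM against 165 ± 83.6 in L6-Npy (log2 fold 1.18 ± 0.14, edgeR adjusted p = 7.66e-07) and at 459 ± 28.1 against 260 ± 83.4 in L6-Syt6 (0.90 ± 0.15, edgeR adjusted p = 0.0129). Called higher in both subtypes were also Egr2, Gadd45b, Arc, Npas4, Nr4a2 and Ptgs2. Egr3, Per1, Nr4a1 and Nr4a3 were called in L6-Npy alone of these 2 subtypes, and that difference was not tested. The list counts were not repeated under the alternative settings given below. Among these, DESeq2 and a fit with no library block called far fewer genes in L6-Npy.

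Of 12 late genes of neuronal activity, 5 were called higher in L6-Npy, with a median of 0.39. They were Bdnf, the neurotrophin, Nptx2, which clusters AMPA receptors, the secreted peptide precursors Scg2 and Vgf, and Cdkn1a, a cell cycle inhibitor. Nptx2 was at 76.5 ± 20.1 CPM against 40.9 ± 2.0 (log2 fold 0.91 ± 0.12, edgeR adjusted p = 8.10e-06). In L6-Syt6 only Bdnf was called among 12, at 30.7 ± 3.2 CPM against 21.3 ± 5.2 (log2 fold 0.68 ± 0.10, edgeR adjusted p = 0.00727), and the list median was -0.15.

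Heat shock and dissociation genes were counted because the early genes respond to tissue handling as well. Dnajb1, a co-chaperone, was called in both subtypes, at 122 ± 28.9 CPM against 80.4 ± 1.1 in L6-Npy and 236 ± 28.3 against 156 ± 20.6 in L6-Syt6. Hspa8, the constitutive chaperone, was also called in L6-Syt6, at 1662 ± 131 against 1115 ± 307 CPM. The summed level of the 15 genes was 8926 to 10411 CPM in barcode-high and 6151 to 7857 in barcode-zero L6-Syt6 neurons, without overlap. In L6-Npy it was 4238 to 5328 and 3713 to 5174, with overlap. Median log2 folds were 0.26 (2 of 15 called) and 0.07 (1 of 13), and their part in the AP-1 result was not tested.

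In L5-S100b, where no member was called, 4 of 16 early genes were higher (median log2 fold 0.39): Egr3, Arc, Nr4a1 and Npas4. Egr3 was at 366 ± 27.9 CPM against 242 ± 41.4 (log2 fold 0.61 ± 0.08, edgeR adjusted p = 1.32e-06). Nptx2 and Homer1, a scaffold of the postsynaptic density, were called among the late genes, and Dusp5 among the feedback genes. Nptx2 was at 60.5 ± 8.1 CPM against 27.1 ± 3.4 (log2 fold 1.20 ± 0.13, edgeR adjusted p = 1.64e-07).

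Cells outside the excitatory annotation gave the level of the members elsewhere in the same tissue. They were clustered without the 6 members and the early genes, and 20 of 35 clusters could be named from fixed markers. Fos was at 3503 ± 261 CPM in mural cell-like, 2883 ± 48 in endothelial cell-like, 1882 ± 36 in microglia-like and 1109 ± 64 in oligodendrocyte precursor-like cells of the 3 unsorted libraries. Its level in inhibitory neuron-like (326 ± 26.7), oligodendrocyte-like (364 ± 17.2) and astrocyte-like cells (262 ± 23.9) was below that of all excitatory neurons together (528 ± 24.9). None of these ranges reached the excitatory one.

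Fosb was at 993 ± 100 CPM in oligodendrocyte precursor-like and 753 ± 55.2 in mural cell-like cells, against 179 ± 0.6 in excitatory neurons and 12.4 ± 3.5 in astrocyte-like cells. Fosl2 was at 156 ± 41.4 in mural cell-like and 106 ± 3.7 in endothelial cell-like cells, and near 0 in oligodendrocyte-like cells (0.790 ± 0.2) and their precursors (2.28 ± 1.9). Fosb and Fosl2 therefore had opposite orders in oligodendrocyte precursor-like and endothelial cell-like cells.

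Junb was at 5653 ± 185 CPM in microglia-like cells, against 838 ± 13.9 in excitatory neurons, 415 ± 44.2 in oligodendrocyte precursor-like and 77.8 ± 5.5 in oligodendrocyte-like cells. Jun was at 3967 ± 125 in microglia-like, 3937 ± 190 in endothelial cell-like and 2979 ± 238 in oligodendrocyte precursor-like cells, and 662 ± 8.9 in excitatory neurons. Jund ranged from 206 ± 65.2 in astrocyte-like to 2467 ± 162 in mural cell-like cells. A microglia-like cluster of 1190 among the 2744 microglia-like cells had Tnf, Il1a and Il1b, cytokines of the inflammatory response, among its leading genes. Non-neuronal cells were shallow (median 2381 to 4874.5 UMIs per library for the non-neuronal classes, against 21362 to 23213 in excitatory neurons), and the classes are described without a test.

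**Figure D4:**
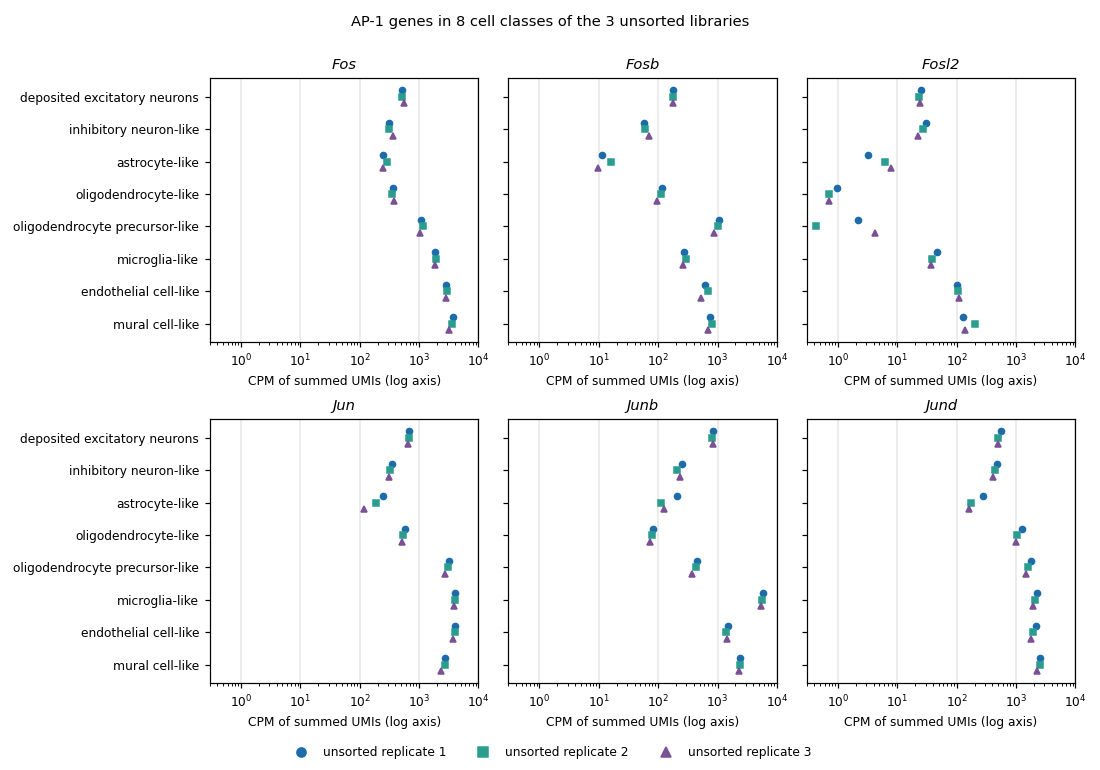
CPM of summed UMIs (log axis) for each AP-1 gene in 8 cell classes, with 1 point per unsorted library. Junb was highest in microglia-like cells (5653 ± 185), Fos in mural cell-like cells (3503 ± 261) and Fosb in oligodendrocyte precursor-like cells (993 ± 100), and Fosl2 was near 0 in oligodendrocyte-like cells (0.790).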

How the data were processed

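The authors made the deposited count matrices with Cell Ranger 3.0.2 from 10x 3' libraries against mm10 with the virus barcodes added; they hold raw UMI counts of called cells, without normalization. The deposited metadata, made with Seurat 3.1.4 and Scanpy per the labels, list other values per neuron (subtype and library labels), total counts, the percent of mitochondrial and ribosomal UMIs and cell cycle scores, of which the last were not used. The authors kept neurons with 500 to 8000 genes, 1000 to 60000 UMIs and at most 20% of UMIs from mitochondria, and removed mixed clusters. That the feature named barcode sums all 5 viruses was not tested. No doublet caller was run here.

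Groups came from the sample titles. UMIs were summed per library, subtype and barcode group (10 or more neurons), and CPM was computed from the sums. The contrasts used edgeR 4.0.16 in R 4.3.3 (TMM, filterByExpr, quasi-likelihood F test, library as block, Benjamini-Hochberg over all genes tested, SE from the F statistic), fitted for subtypes with 3 or more libraries. Each library supplies both groups, so the library is the pair, and the block rests on the same animal or pool. Code was checked on simulated data. Alternatives were DESeq2 1.42.0, RLE scaling, no filter, 1 or more barcode UMIs, neurons of 10000 to 40000 UMIs, no block and each library left out; calls without a fold limit were added after seeing the data. Other cells passing the same filters (11895) were clustered with scanpy 1.11.5 (1987 variable genes, 30 components, 15 neighbours, resolution 1), and a class needed 3 or more of its markers. Thinning used seed 11. GENCODE coordinates are for GRCm38.

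The members and lists were chosen with earlier results of these data known. Named were all 6 members, the list genes called in 2 or more contrasts with up to 3 more per list by size of fold, and the 5 genes most like each of 4 members; those most like Fosl2 were chosen after the values were seen. Cells are not replicates. With library as a block, p-values weigh the difference between groups within libraries against how much that difference varies from library to library.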

Additional observations from a re-analysis of the deposited data

Results flagged for a closer look

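The difference between subtypes in the Fosl2 contrast met a test of the difference itself: barcode-high against barcode-zero neurons in L5-S100b minus the same in L6-Syt6 gave a log2 difference of -0.73 ± 0.20 (SE, edgeR quasi-likelihood interaction, adjusted p = 0.0170). In L6-Syt6 Fosl2 was higher in barcode-high neurons of 4 of 4 libraries, and in L5-S100b of 1 of 4, the sorted one. L5-S100b had 15 to 37 Fosl2 UMIs per library in its barcode-zero sums, so the depth there limits the comparison. The edgeR adjusted p was 0.171 with 1 or more barcode UMIs (difference -0.48), 0.0117 with no filter (-0.66), and 0.0712 to 0.243 without 1 of the unsorted libraries. The cause was not tested.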

How the results depend on the processing

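No direction of a called member turned under any alternative. Members called in L6-Npy (3) became 1 with DESeq2 (Fosl2) and 0 with 1 or more barcode UMIs, and were 1 to 4 without 1 library each. In L6-Syt6 (2) they became 0 with 1 or more barcode UMIs, 4 with no fold limit (added later) and 0 to 1 without 1 library. The others were 0: L2/3-Calb1 became 1 with no filter, 1 for 10000 to 40000 UMIs and 0 to 3 without 1 library, and L2/3-Rorb and L5-Bcl6 became 0 to 1 without 1 library. Library pairs both groups: with no replicate block, members called were 0 in L6-Npy and 1 in L6-Syt6.

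Genes called in L6-Npy (83) were 11 with DESeq2, 0 with no replicate block, 31 with 1 or more barcode UMIs and 45 to 75 without 1 library. In L6-Syt6 (218) they were 75 with no block, 27 with 1 or more UMIs and 28 to 309 without 1 library. In L5-S100b (310) the same settings gave 56, 202 and 178 to 289, and DESeq2 143. L2/3-Calb1 (15) gave 2 with DESeq2, 32 with no filter, 4 with 1 or more UMIs and 12 to 26 without 1 library. L2/3-Rorb (14) gave 0, 28, 6 and 2 to 33, and 0 with no block. L5-Bcl6 (6) gave 0, 22, 0 and 4 to 31, and 1 with no block, 0 with RLE and 0 for 10000 to 40000 UMIs.

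The ratio of highest to lowest subtype was 1.66 for Jund with mean per-cell CPM (1.74 as reported). The interaction calls were 0 in L5-S100b with 1 or more UMIs and 0 to 1 without 1 library, and 0 to 1 in L2/3-Rorb.

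Some log2 folds changed sign, and none was called with the changed sign. In L2/3-Rorb Fosb was at -0.0087 with 1 or more UMIs and -0.028 for 10000 to 40000 UMIs, and with no filter Jun was at 0.0050 and Jund at 0.012. In L5-Bcl6 Fosb was at -0.013 with 1 or more UMIs and Jund at 0.0086 with no filter, and in L6-Npy Jun was at -0.092 with 1 or more UMIs. Without 1 library the log2 folds ranged in L2/3-Calb1 over -0.030 to 0.21 (Fosb), -0.33 to 0.28 (Jun) and -0.19 to 0.0017 (Jund). In L2/3-Rorb the range was -0.16 to 0.24 (Fos), -0.19 to 0.22 (Fosb), -0.14 to 0.099 (Jun), -0.10 to 0.17 (Junb) and -0.079 to 0.00098 (Jund). In L5-Bcl6 the range was -0.095 to 0.94 (Fos), -0.18 to 0.30 (Fosb), -0.42 to 0.023 (Fosl2), -0.28 to 0.15 (Jun), -0.15 to 0.46 (Junb) and -0.043 to 0.0033 (Jund). In L5-S100b the range was -0.042 to 0.33 (Fos), -0.11 to 0.31 (Fosb), -0.25 to 0.046 (Fosl2), -0.0064 to 0.38 (Junb) and -0.035 to 0.074 (Jund). In L6-Npy the range was -0.12 to 0.068 (Jun). Over all alternatives single members gave 281 values with sign and call unchanged. Of the rest, 14 kept the sign and were newly called, 18 kept the sign and lost the call, and 35 changed sign. The causes were not tested, and depth in barcode-zero sums limits the smaller subtypes.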

Other observations

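The genes whose levels followed Fosl2 most closely over the 27 sums of library and subtype were Opcml (r = 0.94), Gria1 (0.92), Tmsb4x (0.92), mt-Cytb (0.91) and Slc44a5 (0.90). Opcml encodes a cell adhesion molecule and Gria1 an AMPA receptor subunit. They were looked up after the levels had been seen, and the correlation is a description over sums that share libraries.

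In L2/3-Calb1, where no member was called, 4 of 11 early genes were called higher, namely Egr4, Egr2, Gadd45b and Arc, together with Dusp6, Ier2 and Dusp1 among 9 feedback genes. Egr4 was at 270 ± 41.2 CPM against 91.0 ± 40.4 (n = 3 libraries, log2 fold 1.59 ± 0.15, edgeR adjusted p = 4.71e-08). In L2/3-Rorb, Egr4 and the peptide precursor gene Vgf were called, at log2 folds of 0.50 ± 0.11 and 0.52 ± 0.09 (edgeR adjusted p = 0.0132 and 0.00117). No gene of these lists was called in L5-Bcl6.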
